A study of Mus musculus with 10 samples.

Results

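Chemokines are small secreted proteins that guide migrating cells along a gradient, and their receptors are seven-pass membrane proteins that signal through inhibitory G proteins. Homeostatic chemokines position lymphocytes and dendritic cells in lymph nodes, skin and mucosa, whereas inflammatory chemokines are induced at sites of infection, injury or tumour growth and recruit monocytes, neutrophils and effector T cells. S1pr1, a receptor for the lipid sphingosine-1-phosphate, guides lymphocytes out of lymph nodes and is counted here beside the chemokine receptors that bring them in. The genes described were chosen by name, as all deposited gene names of the Ccl, Cxcl, Ccr and Cxcr series together with Cx3cl1, Cx3cr1, Xcl1, Xcr1 and S1pr1. This gave 59 of 34162 gene names, carried by 132 transcript rows, with 39 ligands (18 homeostatic and 21 inflammatory), 19 chemokine receptors and S1pr1.

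Gene expression was measured by RNA sequencing of melanoma cells sorted from fresh mouse tumours (strain C57BL/6:SV129), either from lymph node metastases or from primary tumours of the skin. A flow cytometry sort divided each into GFP+ cells, labelled c-Myc-high, and GFP- cells, labelled c-Myc-low. The groups were metastatic c-Myc-high (3 libraries), metastatic c-Myc-low (3), primary c-Myc-high (2) and primary c-Myc-low (2), all from amplified total RNA and with no treatment named in the labels. The labels give neither the alleles behind the tumours and the GFP nor the animals' age. Nothing in them ties replicates to different mice, and the p-values reflect only how far these libraries scattered, which may be technical.

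Total estimated counts ran from 1603012 to 6844328 per library, and 3 counts stood for 0.361 to 2.79 CPM, the count relative to the library's size after TMM scaling. The chosen genes took 0.0415% to 0.211% of a library's counts. Myc itself lay between 103 and 994 CPM in the c-Myc-high libraries and between 101 and 317 CPM in the c-Myc-low libraries, so the classes overlapped for the gene they are named after. Keratinocyte markers summed to 27.2 to 330 CPM in metastatic libraries and to 18825 to 86029 CPM in primary libraries, while pigment cell markers summed to 2870 to 20297 CPM in metastatic and 590 to 2815 CPM in primary libraries. The pan-leukocyte list summed to 398 to 5281 CPM in metastatic and 43.7 to 184 CPM in primary libraries. Salivary gland transcripts reached 106939 and 30086 CPM in replicates 1 and 3 of metastatic c-Myc-high and at most 518 CPM elsewhere. In sorted bulk RNA of this kind, fewer cells of a type and less RNA per cell cannot be told apart.

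Promoter sequences are shown for a gene pair that was lower in metastatic cells, whose near-identity also bears on how its reads could be assigned, and for ligands whose upstream sequence held a match to an inflammatory motif. The skin ligand genes Ccl27a and Ccl27b lie on chromosome 4. There were 3 windows for Ccl27a and 4 for Ccl27b, and the pair that matched best is shown. The 250 bases upstream of one start site of each (RefSeq, GRCm38.p6, chr4:41770213-41770462 on the minus strand and chr4:42655001-42655250 on the plus strand) were identical at 236 of 238 aligned bases, and capitals mark the 2 differences.
Ccl27a: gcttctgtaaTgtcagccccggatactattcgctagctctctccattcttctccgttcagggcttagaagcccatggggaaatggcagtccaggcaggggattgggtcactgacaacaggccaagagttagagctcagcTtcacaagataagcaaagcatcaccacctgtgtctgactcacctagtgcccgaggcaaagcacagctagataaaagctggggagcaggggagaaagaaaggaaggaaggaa
Ccl27b: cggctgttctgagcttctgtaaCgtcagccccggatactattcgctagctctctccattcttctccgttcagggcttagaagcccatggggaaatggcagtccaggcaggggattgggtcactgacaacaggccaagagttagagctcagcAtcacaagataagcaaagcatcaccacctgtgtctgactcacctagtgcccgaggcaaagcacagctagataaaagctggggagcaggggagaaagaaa

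Promoter windows (250 bases before to 50 after a start site) from RefSeq were matched to 41 of the 59 genes. Ccl21b and Ccl21c were left out beforehand, because their deposited names point to other genes in the annotation. The NF-kB motif (GGG, any 2 bases, then TTTCC), searched on both strands like the others, was present in windows of 6 of these 41 genes (14.6%: Ccl9, Ccl20, Ccr3, Cxcl1, Cxcl2 and Cxcl3), against 1.89% of all 27025 gene symbols with a window. The interferon-type motif (GAAA, any 2 bases, then GAAA) occurred in 3 of 41 (7.32%: Ccl19, Cxcl10 and Cxcl14), against 3.99% of all symbols, and the E-box CACGTG, the motif bound by c-Myc, in 2 of 41 (4.88%: Cxcl3 and Xcr1), against 8.09%. A match describes the letters in the window and is not evidence of binding. Below, capitals mark the match in windows of 60 bases of 3 neutrophil-attracting ligand genes on chromosome 5 (Cxcl1 chr5:90891131-90891190, Cxcl2 chr5:90903777-90903836 and Cxcl3 chr5:90786003-90786062, all plus strand), of Ccl20 (chr1:83116661-83116720, plus strand) and, for the interferon-type motif, of Cxcl10 (chr5:92349068-92349127, minus strand).
Cxcl1: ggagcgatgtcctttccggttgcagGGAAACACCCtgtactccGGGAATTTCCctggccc
Cxcl2: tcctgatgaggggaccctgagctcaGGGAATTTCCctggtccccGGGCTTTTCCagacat
Cxcl3: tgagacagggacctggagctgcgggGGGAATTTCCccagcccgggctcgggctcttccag
Ccl20: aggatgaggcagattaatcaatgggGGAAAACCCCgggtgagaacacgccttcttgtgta
Cxcl10: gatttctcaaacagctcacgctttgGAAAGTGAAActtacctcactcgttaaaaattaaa

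By edgeR, chemokine and receptor genes were called between tumour sites and none between c-Myc classes. Cxcr4, Ccr6, Ccl5 and S1pr1 were among those higher in metastatic than in primary cells, and Ccl27a and Ccl27b among those lower. Of the 59 genes, 51 passed the low-count filter and were tested (16 homeostatic ligands, 19 inflammatory ligands, 15 receptors and S1pr1). Averaged over both c-Myc classes, 16 of the 51 were higher in metastatic than in primary libraries and 7 were lower, at an edgeR adjusted p under 0.05 over all genes. Across all 16805 genes tested in this comparison 13.8% were called, 8.13% as higher and 5.65% as lower. The median log2 difference was 3.74 over the 51 genes and 0.28 over all genes tested. The median of the 51 was the same with the 3 genes that had no count at one site set at their bound. Counts and medians take each gene name separately. They include the near-identical copies Ccl21a, Ccl21b and Ccl21c, and Ccl27a and Ccl27b, which are not independent.

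**Figure D1:**
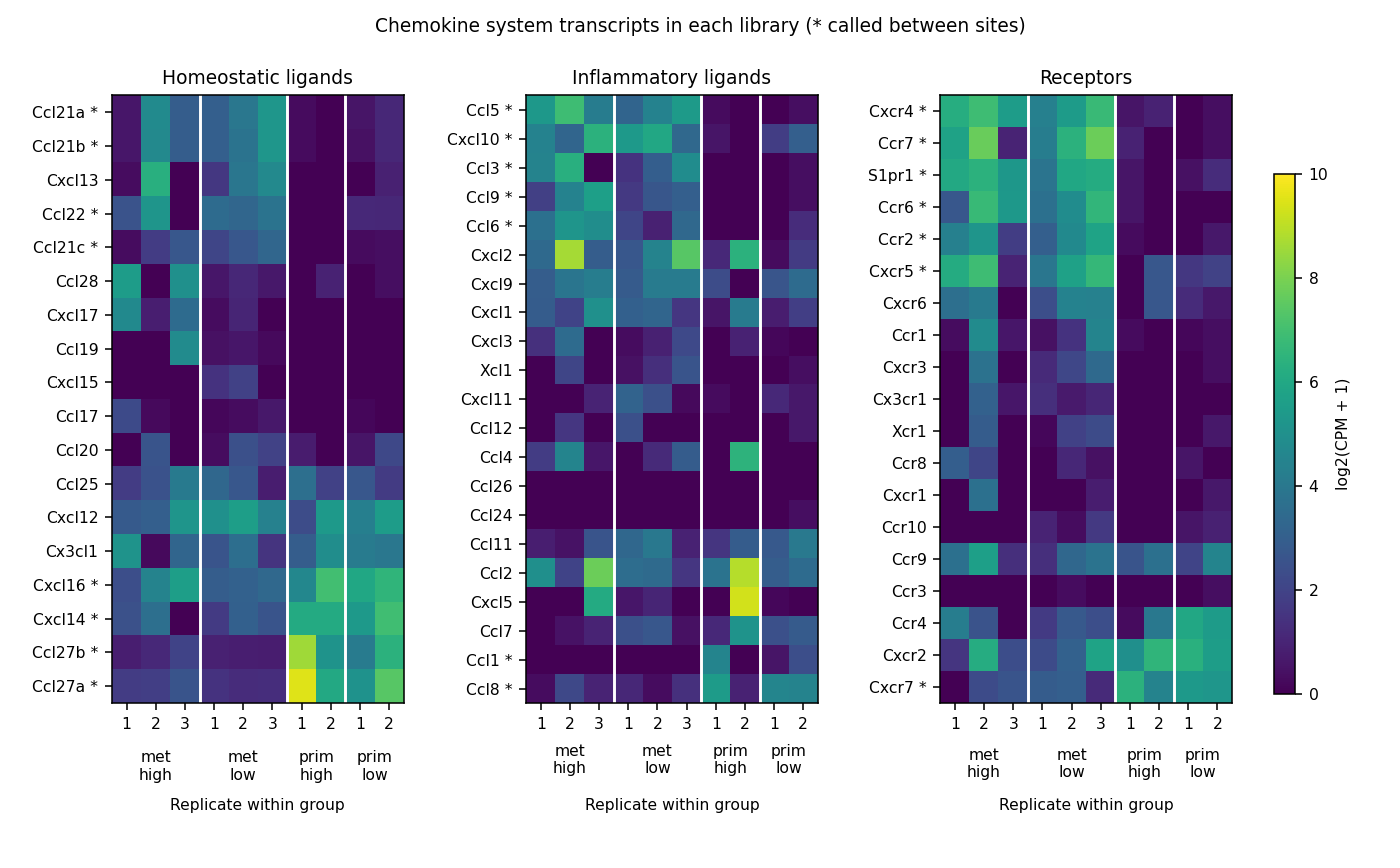
Level of the genes in each library as log2(CPM + 1), by role, with the metastatic libraries left of the primary ones in every panel and an asterisk on genes called in the mean site comparison. The receptors Cxcr4, Ccr7, S1pr1 and Ccr6 are bright in metastatic columns and near 0 in primary columns, and Ccl27a and Ccl27b show the opposite.

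Among the receptors, Cxcr4, Ccr7, Ccr6, Ccr2 and Cxcr5 were higher in metastatic cells and Cxcr7 was lower. The median over the 15 tested chemokine receptors was a log2 difference of 4.77. Cxcr4 (chr1:128588199-128592293, minus strand), the signalling receptor for Cxcl12, had, in order of replicate number, 73.5, 118 and 44.9 CPM in metastatic c-Myc-high and 19.7, 43.9 and 109 CPM in metastatic c-Myc-low, against 0.479 and 0.93 CPM in primary c-Myc-high and 0 and 0.288 CPM in primary c-Myc-low. Every metastatic library lay above every primary library, and the mean log2 difference was 7.88 (SE 1.03, edgeR adjusted p = 0.0007). Ccr7 (chr11:99144196-99155077, minus strand), which leads dendritic cells and lymphocytes towards Ccl19 and Ccl21, had 53.4, 207 and 1.02 CPM in metastatic c-Myc-high and 18.1, 86.0 and 214 CPM in metastatic c-Myc-low, against 0.957 and 0 CPM in primary c-Myc-high and 0 and 0.288 CPM in primary c-Myc-low. Its log2 difference was 8.37 (SE 1.63, edgeR adjusted p = 0.00725), although metastatic c-Myc-high replicate 3 barely exceeded the highest primary library.

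Ccr6 (chr17:8236043-8257141, plus strand), the receptor for Ccl20 on B cells and some T cells, had 5.64, 106 and 39.2 CPM in metastatic c-Myc-high and 12.1, 28.5 and 94.8 CPM in metastatic c-Myc-low libraries. The primary libraries together held 2 counts, both in c-Myc-high replicate 1, and the ratio of summed levels was 391 (exact 95% interval 108 to 3228, counting error only, edgeR adjusted p = 0.00345). Cxcr5 (chr9:44511787-44561877, minus strand), the receptor that takes B cells into follicles, had 69.8, 116 and 1.02 CPM in metastatic c-Myc-high and 14.2, 51.8 and 100.5 CPM in metastatic c-Myc-low, against 0 and 5.58 CPM in primary c-Myc-high and 2.04 and 2.88 CPM in primary c-Myc-low. Its groups overlapped through metastatic c-Myc-high replicate 3, and the log2 difference was 4.62 (SE 1.36, edgeR adjusted p = 0.0426). Ccr2, the monocyte receptor for Ccl2, had 19.3, 36.2 and 2.55 CPM in metastatic c-Myc-high and 7.25, 25.7 and 54.5 CPM in metastatic c-Myc-low, against 3 counts in all 4 primary libraries, a ratio of 145 (interval 49.4 to 704, edgeR adjusted p = 0.00931).

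S1pr1 (chr3:115710433-115715072, minus strand) had 64.4, 86.0 and 37.7 CPM in metastatic c-Myc-high and 13.2, 61.3 and 69.7 CPM in metastatic c-Myc-low, against 0.479 and 0 CPM in primary c-Myc-high and 0.361 and 1.44 CPM in primary c-Myc-low. All metastatic libraries lay above all primary ones, and the log2 difference was 6.61 (SE 0.95, edgeR adjusted p = 0.00129). The calls of Cxcr4, Ccr6 and S1pr1 were kept in each of the 10 fits that left out 1 library and in all the other alternatives, while Ccr2 and Ccr7 were lost without primary c-Myc-low replicate 1 (edgeR adjusted p = 0.0609 and 0.0595). Cxcr5 was lost without any library other than metastatic c-Myc-high replicate 3 and primary c-Myc-high replicate 2 (adjusted p up to 0.195).

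Leukocyte markers moved with these receptors. The B cell list, all 10 of whose genes were in the table, summed to 836, 3930 and 140 CPM in metastatic c-Myc-high and 249, 1258 and 3050 CPM in metastatic c-Myc-low, against 11.5 and 1.86 CPM in primary c-Myc-high and 5.53 and 7.78 CPM in primary c-Myc-low. One of its 10 genes was at 0 in metastatic c-Myc-high replicate 3 and none in the other metastatic libraries, whereas 9 of 10 were at 0 in primary c-Myc-high replicate 2. The T cell list summed to 65.8 to 778 CPM in metastatic and 64.2 to 320 CPM in primary libraries. Thy1, which other cell types also express, made up 64.2 to 317 CPM of the primary sums, against 0 to 89.2 CPM in metastatic libraries. Without Thy1, taken out after its values were seen, the other 10 T cell genes summed to 65.8 to 689 CPM in metastatic and 0 to 14.4 CPM in primary libraries, which did not overlap. Ptprc, which encodes the leukocyte antigen CD45, lay between 55.6 and 618 CPM in metastatic libraries and between 0.722 and 2.87 CPM in primary libraries. The part of leukocytes in the receptor differences was not tested.

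Within the metastatic libraries the receptors parted in the library with the lowest leukocyte sum. Ccr7, Cxcr5, Cxcr4, S1pr1 and Ccr6 were all highest in metastatic c-Myc-high replicate 2 and metastatic c-Myc-low replicate 3. These libraries had the highest leukocyte sums. Ccr7 and Cxcr5 both stood at 1.02 CPM, or 2 counts each, in metastatic c-Myc-high replicate 3, which had the lowest sum. Cxcr4, S1pr1 and Ccr6 kept 44.9, 37.7 and 39.2 CPM in that same library. Per 1000 CPM of the pan-leukocyte list, Cxcr4 amounted to 113 CPM there and to 22.3 to 50.1 CPM in the other 5 metastatic libraries. On that scale Ccr7 amounted to 2.56 CPM there and to 36.1 to 59.2 CPM in the others, and Ccr2 stayed between 6.41 and 15.1 CPM in all 6. The list's 398 CPM in metastatic c-Myc-high replicate 3 held 143 CPM of Lcp1 and 127 CPM of Arhgdib, but 1.53 CPM of Coro1a. Arhgdib also had 26.0 to 137 CPM in primary libraries, so the scale is less sure for that replicate.

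**Figure D2:**
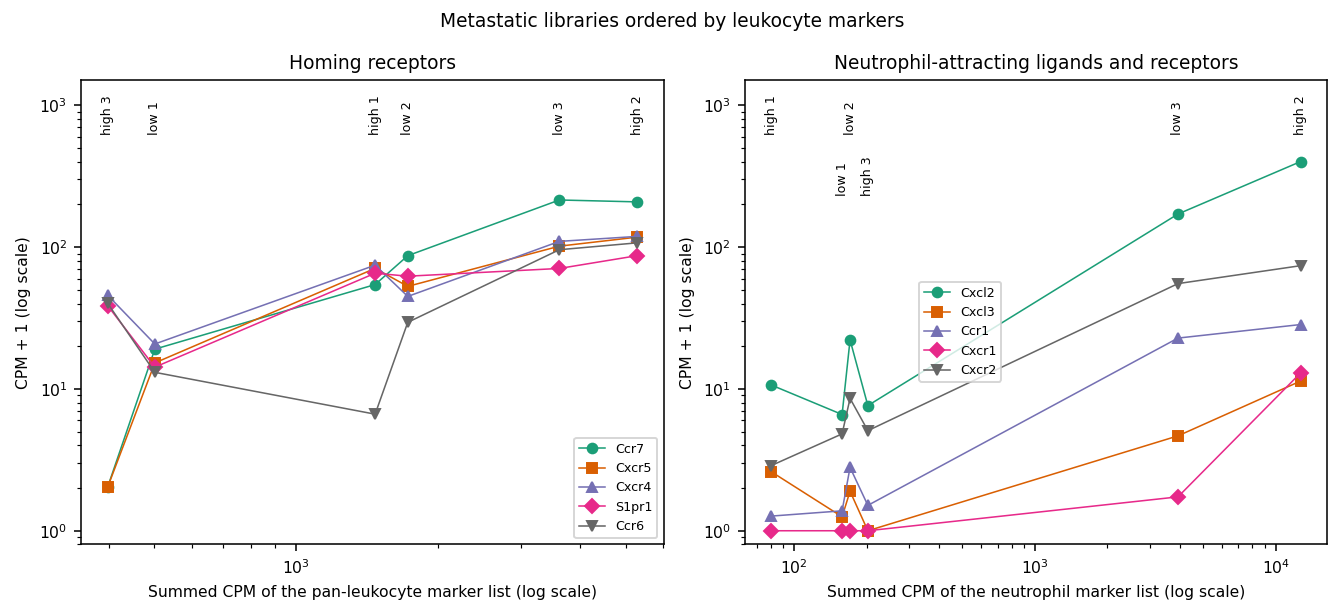
Metastatic libraries placed by the summed CPM of the pan-leukocyte list (left panel, x axis) or the neutrophil list (right panel, x axis), with the level of 5 genes in each as CPM + 1, all axes on log scales, and lines joining a gene's points in x order. Ccr7 and Cxcr5 fall to 1.02 CPM in c-Myc-high replicate 3 where Cxcr4, S1pr1 and Ccr6 do not, and the genes of the right panel are highest in the libraries with neutrophil sums of 3930 and 12712 CPM.

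Cxcr7, called Ackr3 in GENCODE, is an atypical receptor that takes up Cxcl12 without G protein signalling, and it ran opposite to Cxcr4. It had 0, 3.86 and 5.10 CPM in metastatic c-Myc-high and 6.62, 7.06 and 1.28 CPM in metastatic c-Myc-low, against 85.2 and 21.4 CPM in primary c-Myc-high and 40.2 and 37.2 CPM in primary c-Myc-low. The sites did not overlap, and the log2 difference was -3.56 (SE 0.93, edgeR adjusted p = 0.026). Their shared ligand Cxcl12, made by stromal cells, had 6.17, 7.11 and 35.7 CPM in metastatic c-Myc-high and 31.7, 47.4 and 19.8 CPM in metastatic c-Myc-low, against 4.07 and 40.9 CPM in primary c-Myc-high and 19 and 45.2 CPM in primary c-Myc-low. The Cxcl12 ranges overlapped, with a log2 difference of -0.20 (SE 0.78, edgeR adjusted p = 0.904). The Cxcr7 call was lost on leaving out any c-Myc-low library of either site or replicate 1 of primary c-Myc-high (adjusted p up to 0.0942).

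Other receptors were not called. Cxcr2, the receptor that neutrophils use for Cxcl1, Cxcl2, Cxcl3 and Cxcl5, had 1.88, 73.0 and 4.08 CPM in metastatic c-Myc-high and 3.82, 7.57 and 54.3 CPM in metastatic c-Myc-low, against 30.6 and 93.0 CPM in primary c-Myc-high and 79.4 and 46.7 CPM in primary c-Myc-low. The high metastatic libraries were those with neutrophil list sums of 12712 and 3930 CPM, whereas the primary libraries had Cxcr2 at a similar level with sums of 80.0 to 178 CPM. Csf3r, a defining neutrophil gene, had 87.2 and 49.3 CPM in those metastatic libraries and at most 0.93 CPM in primary ones. Ccr4, the receptor for Ccl17 and Ccl22, had 17.7, 4.88 and 0 CPM in metastatic c-Myc-high and 2.29, 5.90 and 4.22 CPM in metastatic c-Myc-low, against 0.239 and 14.9 CPM in primary c-Myc-high and 62.1 and 43.5 CPM in primary c-Myc-low (log2 difference -1.79, SE 1.09, edgeR adjusted p = 0.301). In the c-Myc-low class the Ccr4 ranges did not overlap, yet the gene was not called there either.

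Cxcr3, the receptor for Cxcl9, Cxcl10 and Cxcl11 on effector T and NK cells, had 0, 12.8 and 0 CPM in metastatic c-Myc-high and 1.27, 3.34 and 9.72 CPM in metastatic c-Myc-low, against a single count in the primary libraries (edgeR adjusted p = 0.0895). Cxcr6, the receptor for Cxcl16, had 11.5, 15.8 and 0 CPM in metastatic c-Myc-high and 4.33, 20.4 and 20.2 CPM in metastatic c-Myc-low, against 0 and 5.58 CPM in primary c-Myc-high and 1.32 and 0.576 CPM in primary c-Myc-low (log2 difference 2.90, SE 1.39, edgeR adjusted p = 0.184). Xcr1, a receptor of cross-presenting dendritic cells, had 0, 6.5 and 0 CPM in metastatic c-Myc-high and 0.127, 2.82 and 3.85 CPM in metastatic c-Myc-low, against 2 counts in the primary libraries (edgeR adjusted p = 0.18). All of these had a metastatic c-Myc-high library at 0 and so overlapped with primary cells. Ccr1, Ccr8 and Ccr9 did not pass either, with edgeR adjusted p = 0.0727, 0.203 and 0.87.

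Of the 16 tested homeostatic ligands, 4 were higher in metastatic cells (Ccl21a, Ccl21b, Ccl21c and Ccl22) and 4 were lower (Ccl27a, Ccl27b, Cxcl14 and Cxcl16). The median log2 difference of the 16 was 2.05. Ccl27a, made by keratinocytes and sensed through Ccr10 by skin-homing T cells, had 2.42, 2.64 and 5.10 CPM in metastatic c-Myc-high and 1.78, 1.41 and 1.47 CPM in metastatic c-Myc-low, against 722 and 64.2 CPM in primary c-Myc-high and 33.6 and 166 CPM in primary c-Myc-low. No metastatic library reached the lowest primary one, and the log2 difference was -6.43 (SE 0.78, edgeR adjusted p = 0.000414). Ccl27b gave -6.48 (SE 0.84, edgeR adjusted p = 0.00061) with levels of 0.733 to 3.06 CPM in metastatic and 16.8 to 381 CPM in primary libraries. A transcript of Ccl27a, a gene with 20 transcript rows here, was identical to that of Ccl27b at 402 of 405 aligned bases. Other Ccl27a transcripts were not aligned. Reads from the shared sequence cannot be told apart, so the pair does not make 2 independent observations, although each name is counted in the totals. Both calls were kept in every alternative tried.

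Cxcl14, a chemokine made constitutively by epithelia, had 4.56, 11.6 and 0 CPM in metastatic c-Myc-high and 2.29, 7.44 and 5.13 CPM in metastatic c-Myc-low, against 68.5 and 67.9 CPM in primary c-Myc-high and 40.3 and 119.6 CPM in primary c-Myc-low. The sites did not overlap (log2 difference -3.81, SE 0.85, edgeR adjusted p = 0.0138). Cxcl16, a membrane-bound ligand of Cxcr6 that also takes up oxidised lipoprotein, had 4.29, 21.1 and 47.9 CPM in metastatic c-Myc-high and 6.75, 7.57 and 9.35 CPM in metastatic c-Myc-low, against 23.7 and 125 CPM in primary c-Myc-high and 61.8 and 91.3 CPM in primary c-Myc-low. Its c-Myc-high ranges overlapped while its c-Myc-low ranges did not (log2 difference -2.44, SE 0.70, edgeR adjusted p = 0.0379). Cxcl14 was lost without primary c-Myc-low replicate 2 (adjusted p = 0.0749), and Cxcl16 in 7 of the 10 fits without 1 library, those leaving out metastatic c-Myc-high replicate 2, any metastatic c-Myc-low library, primary c-Myc-high replicate 2 or either primary c-Myc-low library (adjusted p up to 0.133). Keratinocyte markers such as Krt14, at 4.03 to 8.67 CPM in metastatic and 988 to 13172 CPM in primary libraries, shared the site direction of these ligands. Among primary libraries the order varied, also between markers. Where Krt14 was highest, in c-Myc-high replicate 1, Ccl27a was highest (722 CPM) and Cxcl16 lowest (23.7 CPM). Krt10 (20603 CPM) and the keratinocyte sum (86029 CPM) were highest in primary c-Myc-high replicate 2, as was Cxcl16 (125 CPM). The part of keratinocytes was not tested.

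The Ccl21 genes encode the Ccr7 ligand that lymphatic endothelium and lymph node stroma display. Ccl21a had 0.537, 26.2 and 6.63 CPM in metastatic c-Myc-high and 7.25, 14.5 and 37.6 CPM in metastatic c-Myc-low, against 0.239 and 0 CPM in primary c-Myc-high and 0.481 and 1.15 CPM in primary c-Myc-low (log2 difference 5.21, SE 1.33, edgeR adjusted p = 0.0239). Only metastatic c-Myc-high replicate 1 fell within the primary range. The deposited names Ccl21b and Ccl21c belong to transcripts that GENCODE M21 calls Gm21541 and Ccl21b, and these matched Ccl21a at 864 of 870 and 400 of 402 aligned bases. Their reads cannot be told apart, and Ccl21b (25.2 CPM in metastatic c-Myc-high replicate 2) tracked Ccl21a while Ccl21c stayed at 0.268 to 8.80 CPM in metastatic libraries. With all copies of each family added together, both families were still called between sites, with an edgeR adjusted p = 0.00991 for Ccl21 and 0.000372 for Ccl27. As deposited, Ccl21a and Ccl21b were lost without any primary library, metastatic c-Myc-low replicate 2 or metastatic c-Myc-low replicate 3, and Ccl21c also without metastatic c-Myc-low replicate 1 (adjusted p up to 0.17). The endothelial list summed to 96.9 to 518 CPM in metastatic and 8.38 to 27.9 CPM in primary libraries, and its part was not tested.

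Ccl19, the other Ccr7 ligand, was too low to be tested. It held 54 of its 62 counts in metastatic c-Myc-high replicate 3 (27.5 CPM), a library where Ccr7 was nearly absent. Cxcl13, the Cxcr5 ligand of follicular stroma, had 0.268, 77.2 and 0 CPM in metastatic c-Myc-high and 2.04, 14.4 and 25.3 CPM in metastatic c-Myc-low, against 3 counts in the primary libraries, all in c-Myc-low replicate 2 (edgeR adjusted p = 0.0636). Cxcl13 and Cxcr5 were both highest in metastatic c-Myc-high replicate 2 and both lowest among metastatic libraries in c-Myc-high replicate 3. Ccl22, a dendritic cell ligand of Ccr4, had 4.83, 36.6 and 0 CPM in metastatic c-Myc-high and 10.2, 8.98 and 13.2 CPM in metastatic c-Myc-low, against 0 and 0 CPM in primary c-Myc-high and 1.2 and 1.15 CPM in primary c-Myc-low (log2 difference 6.13, SE 1.75, edgeR adjusted p = 0.0414). The Ccl22 call was kept only on leaving out replicate 1 or 3 of metastatic c-Myc-high among the 10 fits that left out 1 library (adjusted p up to 0.172). Ccl17, the second Ccr4 ligand, had 22 counts in all and was not tested.

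Ccl20 and Cx3cl1 were not called between sites. Ccl20, the Ccr6 ligand of epithelia, had 0, 5.08 and 0 CPM in metastatic c-Myc-high and 0.255, 4.36 and 2.93 CPM in metastatic c-Myc-low, against 0.718 and 0 CPM in primary c-Myc-high and 0.481 and 3.46 CPM in primary c-Myc-low (edgeR adjusted p = 0.662). Cx3cl1, a tethered ligand of endothelium and epithelium, had 34.4, 0.203 and 8.67 CPM in metastatic c-Myc-high and 5.09, 11.3 and 1.83 CPM in metastatic c-Myc-low, against 6.70 and 28.8 CPM in primary c-Myc-high and 16.8 and 14.7 CPM in primary c-Myc-low (edgeR adjusted p = 0.644). Both overlapped between sites. Its receptor Cx3cr1 had 62 counts, 38 of them in metastatic c-Myc-high replicate 2 and none in primary cells. Ccr10, the receptor for Ccl27 and Ccl28, had 29 counts, of which 7 lay in primary c-Myc-low and 22 in metastatic c-Myc-low libraries.

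Of the 19 tested inflammatory ligands, 5 were higher in metastatic cells (Ccl5, Cxcl10, Ccl3, Ccl6 and Ccl9) and 2 were lower (Ccl1 and Ccl8), with a median log2 difference of 2.15. Ccl5 (chr11:83525778-83530518, minus strand), a T cell and macrophage chemokine, had 39.7, 119 and 17.3 CPM in metastatic c-Myc-high and 8.40, 20.5 and 43.1 CPM in metastatic c-Myc-low. The primary libraries held 2 counts in all, and the ratio was 330 (interval 91.2 to 2729, edgeR adjusted p = 0.00217). The sites did not overlap, and this call was kept in every alternative tried. Cxcl10 (chr5:92346638-92348889, minus strand), an interferon-induced ligand of Cxcr3, had 20.7, 8.54 and 85.6 CPM in metastatic c-Myc-high and 41.1, 63.0 and 9.54 CPM in metastatic c-Myc-low, against 0.479 and 0 CPM in primary c-Myc-high and 2.53 and 7.20 CPM in primary c-Myc-low. Again no metastatic library fell into the primary range (log2 difference 4.84, SE 1.07, edgeR adjusted p = 0.0129), and the order differed from that of Ccl5, with the highest Cxcl10 level in the library with the lowest leukocyte sum.

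Cxcl9 and Cxcl11, which share Cxcr3 with Cxcl10, were not called. Cxcl9 had 6.71, 13.6 and 17.8 CPM in metastatic c-Myc-high and 6.36, 16.8 and 17.1 CPM in metastatic c-Myc-low, against 4.07 and 0 CPM in primary c-Myc-high and 5.17 and 10.4 CPM in primary c-Myc-low (log2 difference 1.62, SE 0.90, edgeR adjusted p = 0.252). Cxcl11 had 0, 0 and 1.02 CPM in metastatic c-Myc-high and 8.02, 4.49 and 0.183 CPM in metastatic c-Myc-low, against 0.239 and 0 CPM in primary c-Myc-high and 1.2 and 0.576 CPM in primary c-Myc-low (edgeR adjusted p = 0.608). Of the 3 genes, only Cxcl10 was called, and differences among them were not tested. The Cxcl10 call was lost on leaving out either primary c-Myc-low library or replicate 1 of primary c-Myc-high (adjusted p up to 0.0904).

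Ccl3, a macrophage ligand of Ccr1, had 21.2, 77.4 and 0 CPM in metastatic c-Myc-high and 1.78, 6.93 and 28.1 CPM in metastatic c-Myc-low, against 1 count in primary libraries, a ratio of 366 (interval 65.5 to 14472, edgeR adjusted p = 0.0263). Ccl9, a myeloid ligand found in rodents, had 2.68, 20.3 and 48.9 CPM in metastatic c-Myc-high and 2.16, 5.39 and 7.15 CPM in metastatic c-Myc-low, against 1 count in primary libraries, a ratio of 163 (interval 29.1 to 6472, edgeR adjusted p = 0.0132). Its neighbour Ccl6 had 12.1, 36.4 and 29.1 CPM in metastatic c-Myc-high and 3.31, 0.898 and 9.35 CPM in metastatic c-Myc-low, against 0 and 0 CPM in primary c-Myc-high and 0 and 1.44 CPM in primary c-Myc-low (log2 difference 6.36, SE 1.65, edgeR adjusted p = 0.0285). Ccl9 did not overlap between sites, whereas Ccl3 and Ccl6 each had a metastatic library within the primary range. Ccl9 was lost on leaving out replicate 1 of either primary group (adjusted p up to 0.0819). Ccl3 was lost without any primary library or metastatic c-Myc-low replicate 2 (up to 0.134), and Ccl6 without either primary c-Myc-high library, primary c-Myc-low replicate 1, or replicate 1 or 3 of metastatic c-Myc-low (up to 0.107).

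Ccl8 and Ccl1 are ligands of Ccr8 in the mouse, and both were higher in primary cells. Ccl8 had 0.268, 3.46 and 1.02 CPM in metastatic c-Myc-high and 1.15, 0.257 and 1.65 CPM in metastatic c-Myc-low, against 43.3 and 0.93 CPM in primary c-Myc-high and 22.2 and 21 CPM in primary c-Myc-low (log2 difference -4.08, SE 1.05, edgeR adjusted p = 0.0256). Primary c-Myc-high replicate 2 lay inside the metastatic range. Ccl1 had no count in any of the 6 metastatic libraries and 90 and 0 counts in primary c-Myc-high and 4 and 15 counts in primary c-Myc-low, so its mean was at least 69.6-fold lower in metastatic cells (floor of 3 counts over the group, edgeR adjusted p = 0.0312). Both calls were lost without any metastatic c-Myc-low library, primary c-Myc-high replicate 1 or either primary c-Myc-low library, with adjusted p up to 0.322 for Ccl8 and 1 for Ccl1.

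**Figure D3:**
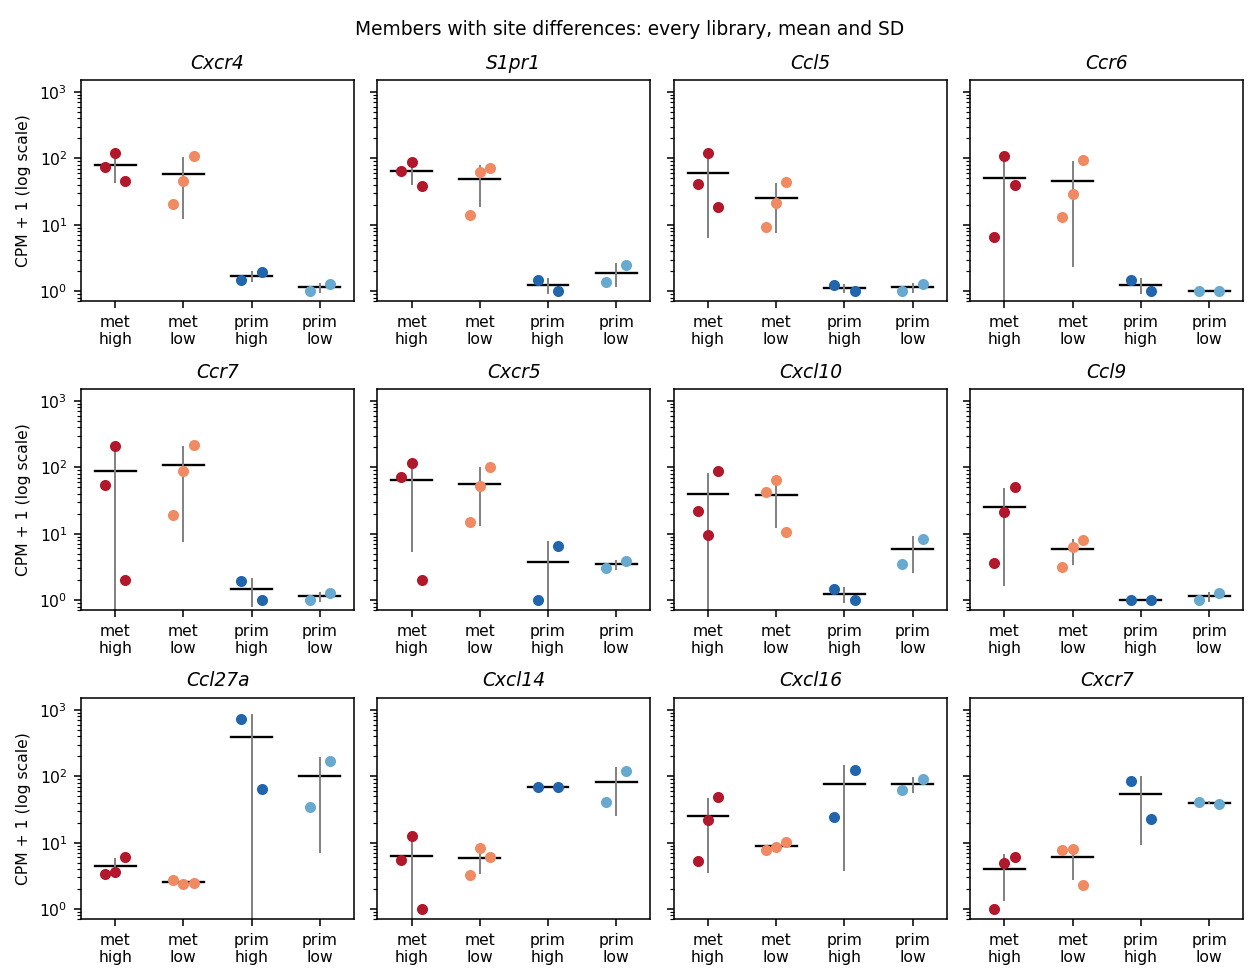
CPM + 1 on a log scale for 12 of the genes called between sites, with a point per library, a bar at the group mean and a line of 1 SD either side that is clipped at the lower edge of the axis, metastatic groups left of primary ones (n = 3, 3, 2 and 2). Cxcr4, S1pr1, Ccl5, Ccr6, Cxcl10 and Ccl9 lie higher in every metastatic library than in any primary library, and Ccl27a, Cxcl14 and Cxcr7 lie lower.

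Ccl2, Cxcl2, Cxcl5 and Ccl4 varied widely between libraries of a group and were not called by site. Ccl2, the main monocyte attractant, had 30.6, 3.05 and 215 CPM in metastatic c-Myc-high and 10.8, 9.88 and 2.02 CPM in metastatic c-Myc-low, against 12.9 and 475 CPM in primary c-Myc-high and 6.74 and 10.4 CPM in primary c-Myc-low. Cxcl5, a ligand of Cxcr2, had 0, 0 and 68.8 CPM in metastatic c-Myc-high and 0.509, 1.03 and 0 CPM in metastatic c-Myc-low, against 0 and 635 CPM in primary c-Myc-high and 0.12 and 0 CPM in primary c-Myc-low. The same pair of libraries, metastatic c-Myc-high replicate 3 and primary c-Myc-high replicate 2, was highest for both. The fibroblast list reached 5187 CPM in primary c-Myc-high replicate 2 and 10.5 to 669 CPM elsewhere, and its part was not tested.

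Cxcl2, a ligand of Cxcr2 that activated myeloid cells make, had 9.66, 400 and 6.63 CPM in metastatic c-Myc-high and 5.6, 21.2 and 170 CPM in metastatic c-Myc-low, against 1.2 and 85.6 CPM in primary c-Myc-high and 0.241 and 2.31 CPM in primary c-Myc-low (log2 site difference 3.74, SE 1.60, edgeR adjusted p = 0.137). Its metastatic peaks were the libraries with the highest neutrophil sums. Ccl4, an inflammatory macrophage chemokine, had 2.42, 21.9 and 0.51 CPM in metastatic c-Myc-high and 0, 1.28 and 6.42 CPM in metastatic c-Myc-low, against 0 and 86.5 CPM in primary c-Myc-high and 0 and 0 CPM in primary c-Myc-low (site adjusted p = 0.496 with edgeR). Xcl1, made by NK and CD8 T cells, had 0, 3.25 and 0 CPM in metastatic c-Myc-high and 0.382, 1.54 and 5.13 CPM in metastatic c-Myc-low, against 1 count in primary libraries (edgeR adjusted p = 0.147). Ccl2 and Cxcl5 gave site differences of -0.86 and -0.70 on the log2 scale, with SEs of 1.04 and 3.26 and edgeR adjusted p = 0.636 and 0.924.

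Per kilobase, so that genes can be set against each other, the highest mean levels over the 10 libraries were those of Ccl27a (28.2 RPKM) and Ccl27b (24.2 RPKM), carried by primary c-Myc-high replicate 1 at 230 and 198 RPKM. Cxcl2 (13.1), Ccl5 (9.47), Ccl2 (7.35), Cxcr4 (6.34) and Ccr7 (6.29) followed in mean RPKM. These means rest on few libraries: metastatic c-Myc-high replicate 2 held the highest level of Cxcl2 (86.7 RPKM), Ccl5 (51.0), Cxcr4 (22.1) and Ccr7 (24.0). Without its highest library, each of these 7 genes averaged between 4.32 (Ccr7) and 5.75 RPKM (Ccl27a). The highest homeostatic ligands after the Ccl27 pair were Cxcl16 at 3.65 and Cxcl14 at 2.89 RPKM, and the highest receptors after Cxcr4 and Ccr7 were Ccr6 at 4.12 and Cxcr7 at 3.31 RPKM. S1pr1 averaged 2.18 RPKM.

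Within the c-Myc-high class, 4 of the 51 genes were called higher in metastatic cells (Ccl5, Cxcl10, Cxcr4 and S1pr1) and 2 lower (Ccl27a and Ccl27b), where 3.97% of all genes were called (1.65% higher and 2.31% lower). The ratio was 380 for Ccl5 (interval 68.1 to 15042, edgeR adjusted p = 0.0307), 71.1 for Cxcl10 (19.5 to 590, adjusted p = 0.0494), 156 for Cxcr4 (53.1 to 755, adjusted p = 0.0218) and 182 for S1pr1 (50.3 to 1510, adjusted p = 0.0184). Ccl27a gave a log2 difference of -6.88 (SE 1.13, edgeR adjusted p = 0.00805) and Ccl27b -7.00 (SE 1.21, edgeR adjusted p = 0.0107). The median log2 difference was 3.62 over the 51 genes, or 1.89 with the 13 genes that had no count in a group set at their bound, and 0.38 over all genes. Without primary c-Myc-high replicate 1, only Ccl27a kept its call (edgeR adjusted p = 0.0445), Cxcl10 was lost in 9 of the 10 fits leaving out 1 library (all but that without metastatic c-Myc-high replicate 2), and Ccl5 was also lost on leaving out replicate 1 or 2 of metastatic c-Myc-high, replicate 2 of metastatic c-Myc-low or replicate 2 of primary c-Myc-high. Leaving out the salivary-rich pair, which leaves 1 metastatic c-Myc-high library assumed to vary like the others, none was called, with adjusted p of 0.0574 for Cxcr4, S1pr1 and Ccl5 and 0.0832 for Ccl27a. In that fit 0 of all 18157 genes tested were called, and the log2 differences were 7.47 for Cxcr4, 7.82 for S1pr1, 9.16 for Ccl5 and -7.24 for Ccl27a.

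Within the c-Myc-low class, Ccl5, Ccr6, Cxcr4 and S1pr1 were called higher in metastatic cells and Ccl27a and Ccl27b lower, where 2.11% of all genes were called (0.375% higher and 1.74% lower). The ratio was 257 for Ccl5 (interval 46.0 to 10189, edgeR adjusted p = 0.0419) and 609 for Cxcr4 (109 to 24060, adjusted p = 0.0103), and Ccr6 was at least 177-fold higher (edgeR adjusted p = 0.0348). S1pr1 gave a log2 difference of 5.80 (SE 1.26, edgeR adjusted p = 0.0353), Ccl27a -5.98 (SE 1.09, adjusted p = 0.014) and Ccl27b -5.95 (SE 1.16, adjusted p = 0.0206). The median was 2.97 over the 51 genes, or 2.59 with the 6 genes without a count in a group at their bound, and 0.10 over all genes. Cxcr4 was lost only without primary c-Myc-low replicate 1 (edgeR adjusted p = 0.157). The Ccl27 pair was lost without any metastatic c-Myc-low library or primary c-Myc-low replicate 2, Ccr6 without any c-Myc-low library, Ccl5 without those or metastatic c-Myc-high replicate 1, and S1pr1 without either primary c-Myc-low library, replicate 2 or 3 of metastatic c-Myc-low, or replicate 1 of metastatic c-Myc-high (adjusted p up to 0.442). The 2 class comparisons and their mean rest on the same libraries and are not independent.

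**Figure D4:**
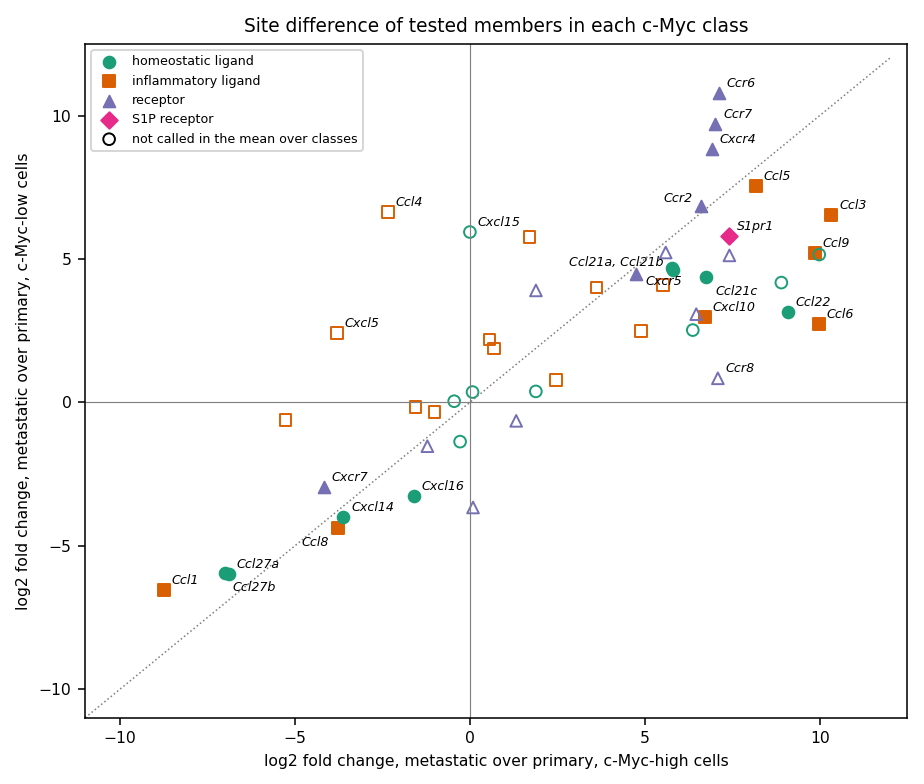
Fitted log2 fold change, metastatic over primary, of the tested genes shown in c-Myc-high cells (x axis) and c-Myc-low cells (y axis), with the shape showing the role and filled symbols the genes called in the mean of the classes. Most filled symbols lie in the upper right or lower left, and the fitted values of genes with no count in a group depend on the model's prior count.

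The site difference itself was compared between classes, and none of the 51 genes was called, nor any of the 16805 genes tested (0%). At an unadjusted p under 0.05 edgeR listed Ccl6 alone among the 51 genes (adjusted p = 0.724), and 797 genes higher and 354 lower among all those tested. The call of Cxcl10 in the c-Myc-high class alone and of Ccr6 in the c-Myc-low class alone does not show a site difference that depends on class.

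No chemokine or receptor gene was called between the c-Myc classes, in metastases, in primary tumours or in their mean, where 0% of all genes were called by edgeR. Unadjusted p-values under 0.05 were found for 4 of the 51 in metastatic cells (Ccl2, Ccl28 and Cxcl17 higher in c-Myc-high, Cxcl15 lower), 4 in primary cells (Ccl2, Ccl4 and Cxcl5 higher, Cxcl10 lower) and 3 in the mean over sites (Ccl2, Ccl4 and Cxcl5 higher). These are 7.84%, 7.84% and 5.88% of the 51, set against 4.8%, 11.6% and 12.9% of all 16805 genes, so the share in primary cells and in the mean lay below that of all genes. Ccl2 came nearest, at 147 CPM on average in c-Myc-high and 7.96 CPM in c-Myc-low libraries (log2 difference 4.14, SE 1.21, edgeR adjusted p = 0.305), but metastatic c-Myc-high replicate 2 lay below most c-Myc-low libraries. DESeq2 called none in metastatic cells, Ccl4 (higher) and Cxcl13 (lower) in primary cells and Ccl2, Ccl4 (higher) and Cxcl13 (lower) in the mean, and limma-voom called none in any of these. Over all genes, DESeq2 called 0.35%, 1.52% and 1.9% in these comparisons. The Ccl4 call rests on primary c-Myc-high replicate 2, which held all 93 primary counts of that gene. Cxcl13 had only 3 primary counts, all in primary c-Myc-low replicate 2. In metastases its mean was 25.8 CPM in c-Myc-high, where replicate 2 held 77.2 CPM, and 13.9 CPM in c-Myc-low. This is the reverse of the direction called in the mean over sites.

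Ccl28 and Cxcl17, mucosal ligands made by glandular epithelium, were high in the same metastatic c-Myc-high libraries as the salivary gland list. Ccl28 had 45.6, 0 and 31.6 CPM in metastatic c-Myc-high and 0.509, 1.16 and 0.55 CPM in metastatic c-Myc-low libraries. Cxcl17 had 25.8, 0.813 and 10.2 CPM in metastatic c-Myc-high and 0.255, 1.03 and 0 CPM in metastatic c-Myc-low libraries. The high values are those of replicates 1 and 3, in which the salivary list stood at 106939 and 30086 CPM against 135 CPM in replicate 2. The part of salivary tissue in these levels was not tested.

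Genes that act beside the chemokine receptors differed by site in the same comparison. Of 33 tested genes for receptor signalling and leukocyte migration, 17 were called higher in metastatic cells on average over the classes and none lower, with a median log2 difference of 4.23. As above, 8.13% of all genes were called higher and 5.65% lower, with a median of 0.28, and the lists that follow are read against these values. Dock2, which activates Rac downstream of chemokine receptors in leukocytes, had 190, 342 and 21.4 CPM in metastatic c-Myc-high and 41.7, 235 and 343 CPM in metastatic c-Myc-low, against 1.44 to 3.11 CPM in primary libraries (edgeR adjusted p = 0.00219). Itga4, the integrin subunit through which lymphocytes and some melanomas adhere, had 117 to 331 CPM in metastatic c-Myc-high and 257 to 377 CPM in metastatic c-Myc-low, against 5.58 to 16.3 CPM in primary c-Myc-high and 1.56 to 8.36 CPM in primary c-Myc-low (edgeR adjusted p = 0.00112). Unlike Dock2, Itga4 was as high in the metastatic libraries with the lowest leukocyte sums, at 328 and 377 CPM. The list shares Coro1a with the pan-leukocyte markers.

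Of 12 tested genes of the sphingosine-1-phosphate axis, 2 were higher in metastatic cells (Klf2, a transcription factor that induces S1pr1 in lymphocytes, and the leukocyte receptor S1pr4) and 3 were lower (S1pr5, Sgpp1 and Sphk1). S1pr5 had 0 to 0.55 CPM in metastatic and 15.8 to 21.6 CPM in primary libraries (log2 difference -7.52, edgeR adjusted p = 0.00203), the reverse of S1pr1. Sphk1, a kinase that makes the lipid, had 0.51 to 14.0 CPM in metastatic and 28.2 to 155 CPM in primary libraries (edgeR adjusted p = 0.0196). The median over these 12 genes was 0.26 on the log2 scale, close to that of all genes. Among 8 genes listed as atypical, decoy or related receptors, none was higher and 2 were lower, Cxcr7 and Pitpnm3, with a median of 1.5. Not all 8 are atypical chemokine receptors, and the list includes Cxcr7 itself.

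Of 10 genes for chemokine processing and presentation, Hpse was higher and Ext1 and Sdc1 were lower (median 0.07, below that of all genes). A single higher gene of 10 is near the share among all genes. Sdc1, a syndecan whose heparan sulfate binds chemokines, had 0.51 to 4.27 CPM in metastatic and 94.8 to 179.5 CPM in primary libraries (log2 difference -5.76, edgeR adjusted p = 0.000286). Hpse, heparanase, which cuts heparan sulfate, had 29.5 to 918 CPM in metastatic c-Myc-high and 61.2 to 952 CPM in metastatic c-Myc-low, against 4.55 and 11.2 CPM in primary c-Myc-high and 5.29 and 27.4 CPM in primary c-Myc-low (edgeR adjusted p = 0.0305). Of 19 inducers of inflammatory chemokines, Il1b, Irf1, Lta and Ltb were higher in metastatic cells and none was lower (median 1.27). Il1b had 14.5, 800.2 and 0 CPM in metastatic c-Myc-high and 9.16, 28.4 and 342 CPM in metastatic c-Myc-low, against 1.68 to 2.88 CPM in primary libraries (edgeR adjusted p = 0.0432), so its peaks fell in the libraries where Cxcl2 and the neutrophil list peaked.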

How the data were processed

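The authors deposited a table of 92214 transcript rows holding estimated counts, not scaled between libraries, and RPKM, scaled by the authors for transcript length and reads per library. Bowtie2, limma and mm10 are named without versions in the submitters' processing notes, and the sources used here give neither the counting program nor its strand setting, so near-identical, overlapping and antisense genes remain uncertain. Estimated counts were summed by gene name and rounded. In R 4.3.3, edgeR 4.0.16 (default expression filter, TMM factors, robust quasi-likelihood test over all 4 groups, no covariate, common biological coefficient of variation 0.876) tested 16805 genes with Benjamini-Hochberg adjustment over all of them in each of 7 comparisons, and an adjusted p under 0.05 was called. Positive log2 differences mean higher in metastatic, or in c-Myc-high, cells, and SEs come from the F statistic. The fit was tested on simulated data. A group without counts was set at a floor of 3 counts over the group, and with 1 to 3 counts the ratio has an exact 95% binomial interval. Floors and intervals cover counting error only. Levels between genes use RPKM. Values are given for genes called in any comparison, the 5 highest by mean RPKM in each role and set ligand-receptor pairs. The members and lists were chosen with earlier results of these data known. A single gene of the set is counted but not reported here or drawn. Gene positions are from GENCODE M21 (GRCm38, the assembly of mm10), 1-based, and promoters from RefSeq. Alternatives used DESeq2 1.42.0, limma 3.58.1 (voom with quality weights, or trend on log2(RPKM + 0.1)), other scalings, no filter, 1 transcript per gene, 2 groups alone, a replicate block and libraries left out. Same-numbered replicates were not treated as pairs in the main fit. The merging of copies, the omission of salivary-rich libraries and TMMwsp scaling were added after seeing the data. Chi-square per degree of freedom between replicates of a group was 48.4 to 227, so no library copied another of its group. Libraries of different groups were not compared in this way.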

Additional observations from a re-analysis of the deposited data

How the results depend on the processing

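Of the 35 called site differences of single genes, none changed direction in any of the 706 values from the alternatives, which included RLE and TMMwsp scaling, and 506 kept their call while 200 did not. The count of called genes moved more. In c-Myc-high cells, 6 genes between sites became 13 without the low-count filter, 25 with DESeq2, 0 with limma-voom, 2 with only the 2 groups fitted and 0 without the salivary-rich libraries. In c-Myc-low cells, 6 became 10 without the filter, 20 with DESeq2, 27 with limma-voom, 3 with 1 transcript per gene and 20 with only the 2 groups fitted. For the mean over classes, 23 became 14 with limma-voom. Between classes, DESeq2 called 2 genes in primary cells, 3 in the mean over sites and 2 for the difference of site effects, where edgeR called 0. The counts over all genes moved too. In c-Myc-high cells, 667 became 1273 without the filter, 3328 with DESeq2, 166 with limma-voom, 155 with only the 2 groups fitted and 0 without the salivary-rich libraries. Of the genes tested, the shares without the filter, with DESeq2, with limma-voom and with 2 groups were 5.1%, 13.5%, 0.988% and 1.12%, against 3.97%. In c-Myc-low cells, 355 (2.11%) became 774 (3.1%) without the filter, 1725 (7.02%) with DESeq2 and 3945 (23.5%) with limma-voom. The count was 225 (1.38%) with 1 transcript per gene and 2276 (14%) with only the 2 groups fitted. For the mean, 2316 (13.8%) became 1900 (11.3%) with limma-voom. Between classes, DESeq2 called 374 genes (1.52%) in primary cells, 466 (1.9%) in the mean and 86 (0.35%) for the difference, where edgeR called 0. The causes were not tested. Leaving out 1 library gave 1 to 9 calls in c-Myc-high cells, 1 to 8 in c-Myc-low cells, 7 to 24 for the mean over classes, and 0 to 0 in each of the 4 other comparisons. The lowest values came without primary c-Myc-high replicate 1 (c-Myc-high cells), metastatic c-Myc-low replicate 2 or 3 or primary c-Myc-low replicate 2 (c-Myc-low cells) and primary c-Myc-low replicate 1 (mean). Leaving out a metastatic library, 1.84% to 6.98% of all genes were called in c-Myc-high cells and 0.776% to 3.42% in c-Myc-low cells. For the mean the share was 7.85% to 16.7%. A fit without a primary library left 1 in its group, so its number of calls is not given. A call lost in such a fit cannot be read as a result about that gene.

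Whether the replicate numbers shared between groups pair the samples is not stated. The 13 same-numbered pairs correlated at -0.33 to 0.155 in their deviations from group means. With 2 or 3 libraries in a group, these values cannot decide whether the samples were paired. A replicate block left 0 calls in c-Myc-high cells, 1 in c-Myc-low cells (Cxcr4, edgeR adjusted p = 0.0426), 9 for the mean over classes and 0 in the other comparisons. Of all genes, it called 0.893%, 0.833% and 5.74% in the site comparisons, in the same order, and 0% in the others. With groups of 2 or 3 libraries and 3 counts worth up to 2.79 CPM, weak genes such as Ccr10, Ccl17 and Ccr3 were out of reach of a test.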

Other observations

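The counts of several genes lay mostly in 1 or 2 libraries. Of 65 counts of Cxcr1, a neutrophil receptor for Cxcr2-type ligands, 59 lay in metastatic c-Myc-high replicate 2, the library with the highest neutrophil sum, 4 in metastatic c-Myc-low replicate 3 and 2 in primary c-Myc-low replicate 2. Ccl12, a mouse monocyte ligand of Ccr2, had 35 of its 47 counts in metastatic c-Myc-low replicate 1. Cxcl15, a mouse epithelial chemokine, had 14 and 22 counts in metastatic c-Myc-low replicates 1 and 2 and none in the other 8 libraries. Ccl26 had no count in any library and Ccl24 a single one, in primary c-Myc-low replicate 2.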
